A study of Rattus norvegicus with 2 samples.

Results

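Transporter genes were the hosts of 224 of the 11599 circular RNAs (circRNAs) listed in rat spinal cord, in a bone cancer pain group (BCP) and a sham group. A circRNA is a covalently closed RNA loop that arises by back-splicing, in which the end of an exon is spliced to the start of the same exon or of an earlier one. Members were the circRNAs whose gene field names a solute carrier (Slc or Slco), an ABC transporter of subfamilies A, B, C, D or G, or a P-type or vacuolar ATPase, with Slc44a1, Slc4a4 and Slc7a11 left out. They came from 93 genes. A name whose circRNAs covered over 3 Mb would have been skipped, but 0 transporter names did: the widest, Slc9a9, covered 702484 bp.

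The BCP group had received live Walker256 cells, a rat mammary carcinoma line, in the marrow cavity of the tibia. The sham group received Walker256 cells boiled for 20 min, with the same surgery. Tissue was taken on day 21 after surgery from 3 animals per group. The labels name SD rats for the passage of the tumour cells; for the animals with BCP or sham surgery they state no strain, sex or age, nor whether RNA was pooled. One label field gives the tissue as spinal cord and another names only the injected line, and the tissue field was followed. There is 1 library per group, so every ratio compares these 2 libraries and not the conditions, and the spread between animals is unknown.

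Solute carriers move ions, nutrients and transmitters across membranes down or against gradients without using ATP directly. ABC transporters and P-type ATPases spend ATP to move lipids, metabolites or ions, and the vacuolar ATPase pumps protons into lysosomes and synaptic vesicles. In spinal cord these proteins set ion gradients, clear transmitters and load vesicles. The reads counted here span back-splice junctions of RNA treated with RNase R, which digests linear RNA, so they describe circRNAs and not the linear mRNA or the protein of these genes. A junction gives reads regardless of the length of the gene, so counts of different circRNAs were set side by side without a length correction.

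The BCP library held 78836 back-splice reads and the sham library 113033. Neuron markers were present as circRNA hosts (6 of 6 genes, 122 BCP and 136 sham reads), while 0 of 3 blood and 0 of 3 muscle markers had a circRNA. A marker gene without a circRNA does not show that its cells were absent. The member Slc4a1, a gene of red blood cells, had 0 BCP and 6 sham reads. Host genes that mark oligodendrocytes had 53 BCP and 14 sham reads (4 of 6 genes), and endothelial ones 19 and 45 (2 of 5). Of the endothelial markers, Flt1 was listed at 0 in BCP with 27 sham reads, and Abcb1a, itself a member, had 19 and 18. Astrocyte markers had 3 and 5 reads, all from Slc1a2 (1 of 6 genes), and microglia markers 0 and 2 (1 of 5). The part of these shifts in the transporter results was not tested, and in tissue RNA fewer cells of a type and less RNA per cell cannot be told apart. Intervals are 95% and exact, and they cover counting error only. The smallest count above 0 was 2 reads, so a value of 0 may stand for a circRNA under that minimum, and no fold is given against it.

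Taken as a set, the transporter circRNAs took nearly the same share of both libraries. They had 1341 BCP reads, 1.70% of that library (1.61 to 1.79), and 1875 sham reads, 1.66% (1.59 to 1.74). The ratio of BCP over sham was 1.03 (0.955 to 1.10). Under median-of-ratios scaling it was 0.954 (0.888 to 1.02), and under TMM scaling 0.946 (0.881 to 1.01), so the direction of the sum is not settled. The BCP library listed 148 of the 224 circRNAs and the sham library 176. Both listed 100 (44.6%, against 41.2% of all circRNAs), BCP alone listed 48 and sham alone 76. The 10 highest members of each library held 44.9% of the BCP reads and 43.9% of the sham reads of the set.

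The most abundant transporter circRNA came from Slc8a3, which encodes the sodium/calcium exchanger NCX3 of the plasma membrane (chromosome 6, 105078168 to 105080571, build rn6, a span of 2404 bp). It had 137 reads in BCP (1738 CPM, its reads scaled to the library's total) and 155 in sham (1371 CPM), a ratio of 1.27 (0.9996 to 1.61). It ranked 42 among all circRNAs by summed CPM. Slc38a1, the gene of the neutral amino acid carrier SNAT1 that takes up glutamine, followed with 126 BCP and 159 sham reads (1598 and 1407 CPM; chromosome 7, 138002505 to 138021168), a ratio of 1.14 (0.892 to 1.44). Next was Atp8a2, which encodes a flippase that moves phosphatidylserine to the inner membrane leaflet. Its leading circRNA had 99 BCP and 166 sham reads (1256 and 1469 CPM; chromosome 15, 40089240 to 40112560). These 3 circRNAs lay close to the line of equal level, and each interval included 1.

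The others among the 10 most abundant ranged from 17 to 53 reads in BCP and from 36 to 76 in sham. Atp8a2 hosted 2 more of them, with 53 BCP and 76 sham reads and with 21 and 44. Slc18b1, the gene of a vesicular polyamine transporter, had 33 and 49 reads (chromosome 1, 22707360 to 22707595). The plasma membrane sodium/calcium exchanger gene Slc8a1 had 26 and 56 (chromosome 6, 4298605 to 4315682), and the flippase gene Atp8a1 33 and 44 (chromosome 14, 42079272 to 42125096). A shorter Slc8a3 circRNA with the same start as the leading one completed the 10, with 17 and 36 reads.

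**Figure D1:**
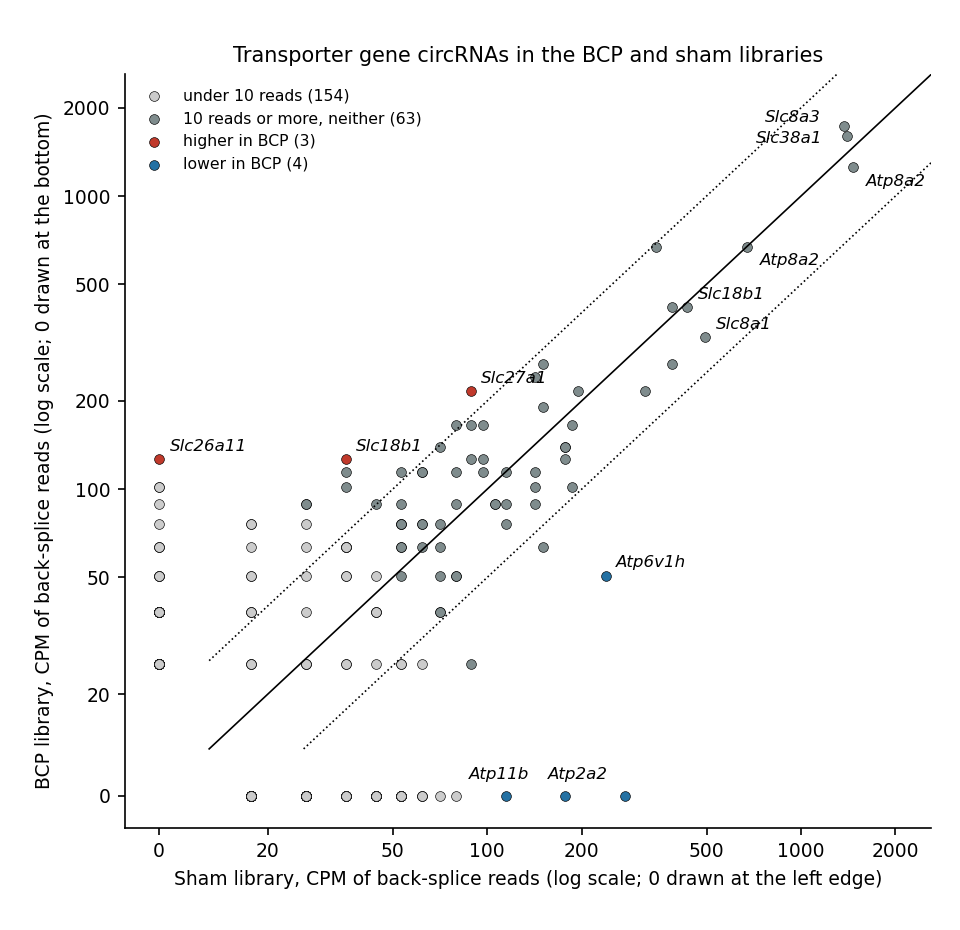
Each point is a transporter circRNA, with its CPM in the BCP library on the y axis and in the sham library on the x axis (log scales, 0 at the edge; the solid line marks equal level and the dotted lines 2-fold). The 10 most abundant lie within 2-fold of equal level, and the 7 coloured points are those past the size rule, with Slc26a11, Atp2a2 and Atp11b among those listed at 0 in one library.

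To ask which transporter circRNAs differed between BCP and sham, a size rule was applied: at least 10 reads over both libraries, a ratio of at least 2-fold (with 0.5 reads added to each count) and an interval that excludes 1. Of the members, 70 had enough reads, from 40 genes. Among these 70, 3 were higher and 4 lower in BCP, and 63 met neither side. The 7 compare with 15.2% of the 3502 circRNAs tested in the table (7.82% higher and 7.34% lower). The share of members is no larger than this background, so the count is no result about transporters. Among the 66 of them with reads in both libraries, 2 were higher and 1 lower, against 8.42% of all such circRNAs (5.86% higher and 2.56% lower). Among the 10 members with at least 50 reads, 0 met the rule, against 10.2% of the 650 such circRNAs in the table. The median log2 ratio of the tested members was 0.15 and that of all tested circRNAs 0.02. Every log2 ratio shifts by -0.10 with median-of-ratios scaling and by -0.12 with TMM scaling.

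**Figure D2:**
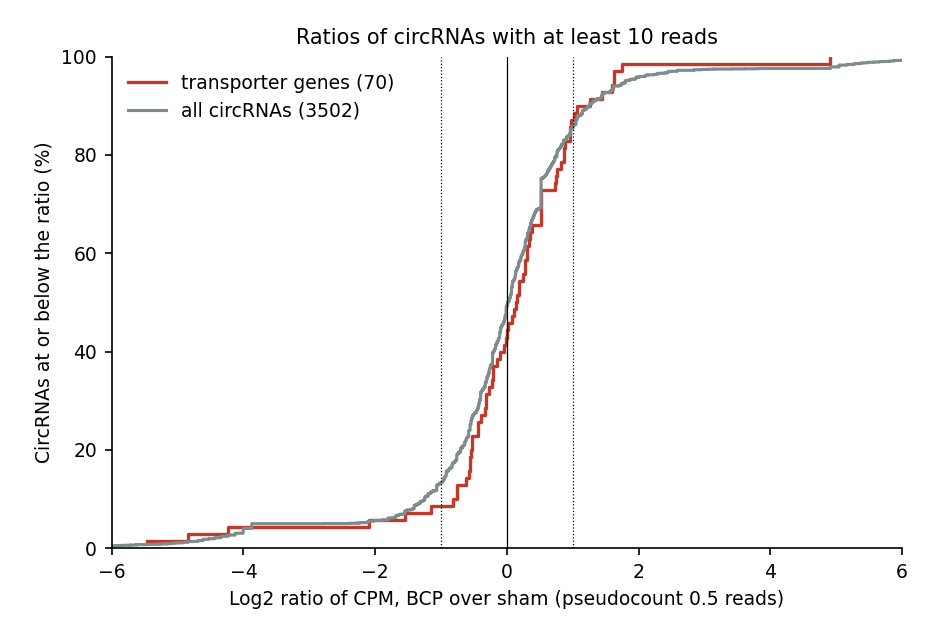
Cumulative share (%) of circRNAs at or below each log2 ratio of BCP over sham, for the 70 tested transporter circRNAs and for all 3502 tested circRNAs. Both curves cross 50% near 0 (medians 0.15 and 0.02), with lower quartiles of -0.43 for transporter genes and -0.56 for all circRNAs.

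The 3 circRNAs higher in BCP came from a fatty acid carrier, a polyamine carrier and an anion exchanger gene. Slc27a1, which encodes the long-chain fatty acid transport protein FATP1, had 17 BCP and 10 sham reads (216 and 88.5 CPM; chromosome 16, 20009431 to 20009965), a ratio of 2.44 (1.05 to 5.96). A second circRNA of Slc18b1 had 10 and 4 reads (chromosome 1, 22716588 to 22735761), a ratio of 3.58 (1.03 to 15.7). Both met neither side of the rule with median-of-ratios or TMM scaling. Slc26a11, a gene for an anion exchanger of chloride and sulfate, had 10 reads in BCP and was listed at 0 in sham (chromosome 10, 108486117 to 108494849). The gene field of this circRNA holds 5 names, so the call is absent when only circRNAs with a single gene name are counted.

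The 4 lower in BCP were all hosted by ATPase genes. Of the 70 tested circRNAs, flippase genes hosted 14, vacuolar ATPase genes 6 and other P-type ATPase genes 5. Atp6v1h, which encodes the regulatory H subunit of the cytosolic part of the proton pump, was the only one with reads in both libraries: 4 in BCP and 27 in sham (50.7 and 239 CPM; chromosome 5, 14282912 to 14314250), 4.71-fold lower in BCP (1.64 to 18.5). The other 3 were listed at 0 in BCP. Among them, Atp2a2, which encodes the calcium pump SERCA2 of the endoplasmic reticulum, had 20 sham reads (chromosome 12, 39564849 to 39567224), and the flippase gene Atp11b 13 (chromosome 2, 122387285 to 122389235). These calls held with both other scalings.

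Several transporter genes gave many circRNAs, some of them with a splice site in common. At least 3 were listed for 29 of the 93 genes (31.2%, against 31.9% of all 3865 host genes), and 43 genes had 1. Atp9b, a flippase gene of the Golgi, led with 19 circRNAs on chromosome 18, none above 20 reads in either library. Many of them have a site in common: 5 of them end at 77489468, and 4 each start at 77466020, end at 77477111 or end at 77520779. Its sum was 62 BCP and 89 sham reads, a ratio of 0.999 (0.710 to 1.40), and its leading circRNA held 17.7% of the BCP reads and 22.5% of the sham reads. Slc38a1 stood at the other end, with 95.5% of its BCP reads and 96.4% of its sham reads in 1 of 2 circRNAs. Over all members, 58.5% shared a start or an end with another circRNA of the table, against 59.9% of all circRNAs.

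Atp8a2 had 9 circRNAs spread over 351532 bp of chromosome 15, with 188 BCP and 317 sham reads and a ratio of 0.850 (0.706 to 1.02). The leading one took 52.7% of the BCP reads and 52.4% of the sham reads. All 5 listed in BCP were also listed in sham, and the other 4, with 2 to 6 reads each, were listed in sham alone. For Slc8a3, 4 of 6 circRNAs started within 2 bp of each other and summed to 163 BCP and 213 sham reads. Pairs of them differed by 2 bp at the start and 0 bp at the end (137 and 155 reads against 9 and 16), and whether each pair is 1 junction was not tested. The 6 circRNAs of Slc8a3 summed to 173 BCP and 234 sham reads (1.06, 0.866 to 1.30). The leading one carries further names in its gene field, small RNA families and Eif3h, and without it the log2 ratio of the gene was -0.60. The Slc8a1 circRNAs (5, with 36 BCP and 82 sham reads) had a ratio of 0.629 (0.413 to 0.942), under 2-fold, and 3 of them ended at 4315682.

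**Figure D3:**
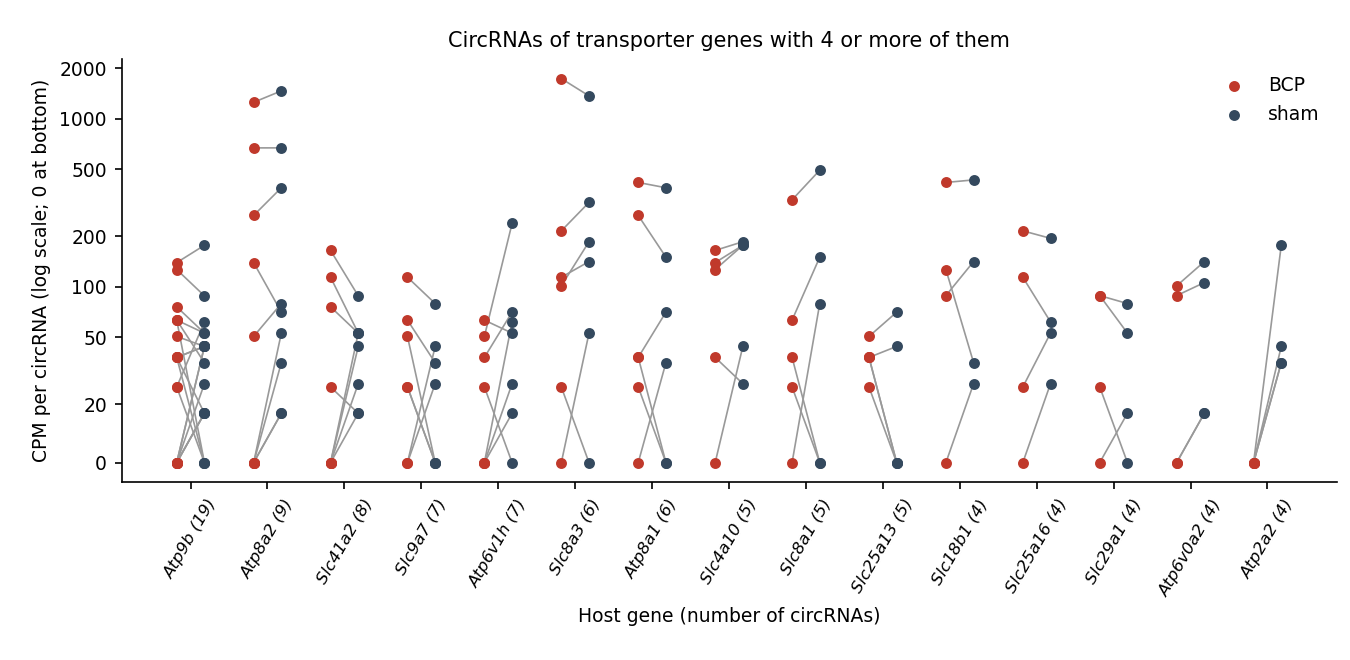
CPM of each circRNA (log scale, 0 at the bottom) of the transporter genes with at least 4 circRNAs, with BCP on the left and sham on the right of each gene and lines joining the same circRNA. Atp8a2 and Slc8a3 have the highest single circRNAs in both libraries, Atp9b spreads its reads over 19 thin circRNAs, and all 4 of Atp2a2 are at 0 in BCP.

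The same circRNA usually led its gene in both libraries. Among 17 transporter genes with at least 3 circRNAs and at least 10 reads in each library, 15 had the same leading circRNA (88.2%), and 72.4% did among 822 such host genes overall. The exceptions were Atp6v1h and Abcc4, an exporter of organic anions. In Atp6v1h, 4 of 7 circRNAs started at 14282912. In BCP the one ending at 14306068 led with 5 reads (6 in sham), and in sham the one ending at 14314250 led with 27 (4 in BCP). In Abcc4 the leaders had 8 BCP and 4 sham reads, and 5 and 7.

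In 11 of the 69 genes with reads in both libraries, no single circRNA was listed in both (15.9%, against 9.53% of all such host genes). The zinc carrier gene Slc30a7 is 1 example chosen after its values were seen. Its 2 circRNAs share a start (chromosome 2, 218919131), and one had 8 reads in BCP and 0 in sham, the other 0 in BCP and 8 in sham.

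To compare genes instead of single junctions, the reads of all circRNAs of a host gene were added. For 55 of the 93 genes the sum reached 10 reads: 3 sums were higher and 5 lower in BCP, and 47 met neither side. Among all host genes, 17.3% of 2144 host gene sums met the rule (8.82% higher and 8.49% lower). The higher ones were Slc26a11 and Slc27a1, with the single circRNAs above, and Abca1, the gene of the cholesterol exporter, with 8 BCP and 2 sham reads over 3 circRNAs (ratio 5.74, 1.14 to 55.4). Slc27a1 met neither side with the other scalings. The lower ones included Atp2a2, whose 4 circRNAs had 33 sham reads and were all listed at 0 in BCP. Slc25a40, a mitochondrial glutathione carrier gene, had 13 sham reads over 3 circRNAs and was listed at 0 in BCP. Atp11b had 5 BCP and 21 sham reads (ratio 0.341, 0.101 to 0.930) and Atp6v1h 14 and 53 (0.379, 0.194 to 0.692). Counting only circRNAs that both libraries list, Atp6v1h still met the rule (12 and 41 reads), Atp11b did not (5 and 8), and Abca1 had too few reads to be tested (3 and 2). The remaining genes with most circRNAs met neither side: Slc41a2, a magnesium carrier gene, had 30 and 40 reads, the Golgi sodium/proton exchanger gene Slc9a7 22 and 21, Atp8a1 62 and 73, the neuronal bicarbonate carrier gene Slc4a10 37 and 69, and the aspartate/glutamate carrier gene Slc25a13 15 and 13.

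**Figure D4:**
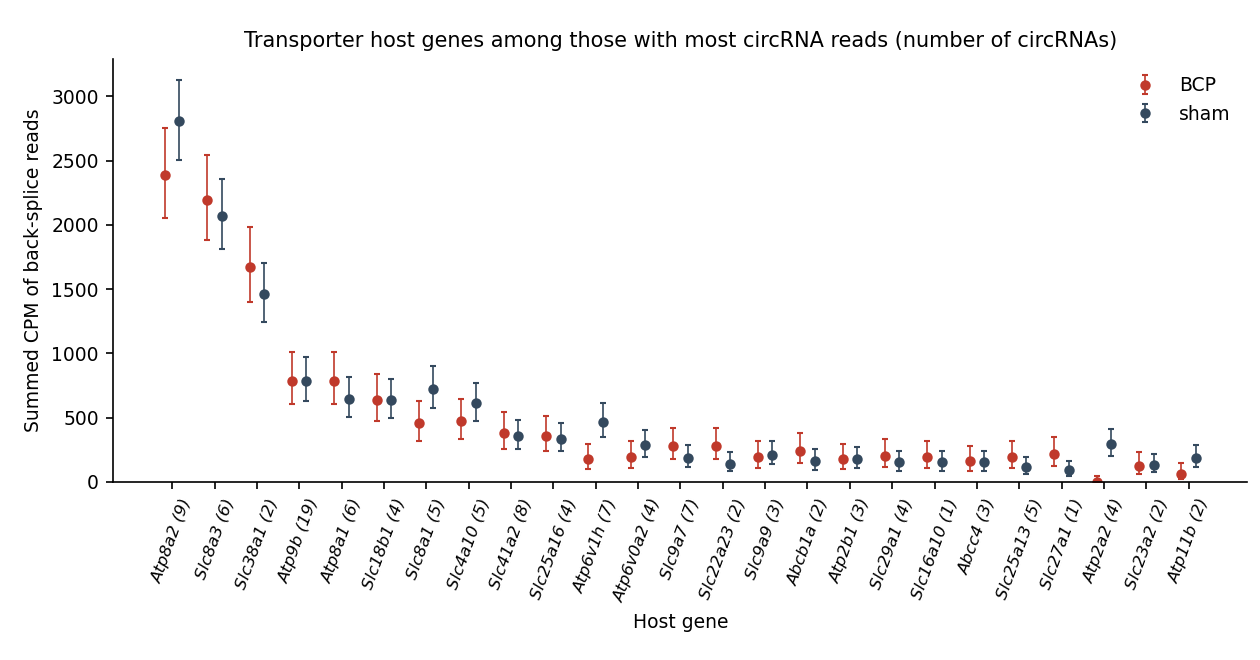
Summed CPM of 25 transporter genes among those with most circRNA reads, BCP on the left and sham on the right of each gene, with exact Poisson 95% intervals for counting error and the number of circRNAs in brackets. Atp8a2, Slc8a3 and Slc38a1 lead in both libraries, and Atp6v1h and Atp2a2 have lower values in BCP.

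Transporter families were then compared by what they carry. The 5 families of ion exchangers, nutrient carriers, transmitter carriers, mitochondrial carriers and nucleotide carriers had summed ratios between 0.924 and 1.15, with intervals that included 1. Exchangers of cations, chloride, bicarbonate and protons had 308 BCP and 456 sham reads from 11 genes (0.968, 0.835 to 1.12), with 1 higher (Slc26a11) and 0 lower of 13 tested. Slc4a10 gave 3 circRNAs of like level, with 10 to 13 reads in BCP and 20 or 21 in sham. The endosomal exchanger gene Slc9a9 had 13 and 11 reads from one circRNA and 2 and 10 from another. Slc4a1, the anion exchanger of red blood cells, had 0 and 6 reads from 1 circRNA. Without the leading Slc8a3 circRNA the ratio of the exchanger family was 0.815 (0.671 to 0.986). Carriers of sugars, amino acids and peptides had 162 and 202 reads (1.15, 0.929 to 1.42), mostly from Slc38a1, and 0 of 6 met the rule. The lysosomal amino acid sensor gene Slc38a9 had 9 and 15 reads and the inositol carrier gene Slc2a13 6 and 7. Mitochondrial carriers of the Slc25 family had 58 and 77 reads (1.08, 0.755 to 1.54; 0.996 with TMM scaling), led by the coenzyme A carrier gene Slc25a16 with 17 and 22, and 0 of 3 met it. Nucleoside and nucleotide sugar carriers had 29 and 45 reads (0.924, 0.559 to 1.51), and 0 of 4 met it. Slc35a3, which carries UDP-N-acetylglucosamine into the Golgi, gave the most abundant of them (7 and 12 reads), and the nucleoside carrier gene Slc29a1 had 16 and 17 reads over 4 circRNAs.

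Genes that move transmitters, a group of direct interest in pain, gave few circRNA reads. The family defined by Slc1, Slc6, Slc17, Slc18 and Slc32 had 65 BCP and 87 sham reads (1.07, 0.765 to 1.49; 0.996 with median-of-ratios scaling), with 1 higher and 0 lower of 4 tested. Slc18b1 held 50 and 72 of them. The GABA carrier gene Slc6a11 had 6 and 7 reads. Slc6a5, the carrier that marks glycinergic neurons, had 6 and 3, and the astrocyte glutamate carrier gene Slc1a2 3 and 5. The choline carrier gene Slc5a7, placed with the nutrient carriers by its name, had 0 and 2 reads. Of these last 4 genes, Slc6a11 alone reached 10 reads, and it met neither side. The vesicular glutamate carrier genes Slc17a6 and Slc17a7 and the vesicular GABA and glycine carrier gene Slc32a1 had no listed circRNA.

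Carriers of organic ions, monocarboxylates, fatty acids and vitamins had 107 reads in each library, a ratio of 1.43 (1.09 to 1.89). Median-of-ratios scaling gave 1.33 (1.01 to 1.76). Of 7 tested, 1 (Slc27a1) was higher and 0 lower, and the most abundant was the aromatic amino acid carrier gene Slc16a10 (15 and 17 reads). Slc22a23, an organic ion carrier gene, had 13 and 9 reads from one circRNA and 9 and 7 from another with the same start. The vitamin C carrier gene Slc23a2 had 10 and 15 reads, the folate carrier gene Slc19a1 9 and 11, and the acetyl-CoA carrier gene Slc33a1 of the endoplasmic reticulum 11 and 7. Carriers of metal ions had 55 reads in each library (1.43, 0.968 to 2.12), with 0 of 3 past the rule. Their leading circRNA, of Slc41a2, had 13 BCP and 10 sham reads. The urea carrier gene Slc14a1 had 9 and 4 reads from 1 circRNA, a ratio of 3.23 (0.900 to 14.3).

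ABC transporters had the highest summed ratio among families with more than 1 gene. Their 23 circRNAs from 13 genes had 122 BCP and 105 sham reads, a ratio of 1.67 (1.27 to 2.18). Median-of-ratios scaling gave 1.55 (1.18 to 2.03). Without the most abundant circRNA of the family they had 69 and 66 reads, and with library totals the interval of the ratio was 1.05 to 2.13. Both other scalings lower every ratio, and whether this interval still excludes 1 under them was not computed. Of the 4 circRNAs tested, 0 met the size rule. Abcb1a, the gene of the drug exporter P-glycoprotein at the blood vessel wall, had 19 BCP and 18 sham reads over 2 circRNAs, and the peroxisomal fatty acid carrier gene Abcd3 had 7 and 6. The sulfonylurea receptor gene Abcc8 had 2 and 6 reads over 3 circRNAs, none of them listed in both libraries.

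The vacuolar proton ATPase and the ion-pumping P-type ATPases had summed ratios under 1. The vacuolar ATPase had 45 BCP and 106 sham reads (0.609, 0.420 to 0.870), with 1 lower and 5 neither of 6 tested. The ratio was 0.744 (0.497 to 1.10) without the leading Atp6v1h circRNA, so the interval under 1 rests on it. Atp6v0a2, which encodes an a subunit of the membrane part, had 15 and 32 reads, and Atp6v0e1, of the same part, 6 and 13. Atp6v0a1, the a subunit gene of neurons, had 7 and 6. P-type ATPases other than flippases had 56 and 118 reads (0.680, 0.486 to 0.943), with 2 lower and 3 neither of 5 tested. Without their most abundant circRNA the ratio was 0.923 (0.648 to 1.31), and counting only circRNAs that both libraries list it turned to 1.35 (0.822 to 2.23). The plasma membrane calcium pump gene Atp2b1 had 14 and 20 reads and met neither side. Flippases of the P4 group, the family with most reads, had 325 and 513 (0.908, 0.788 to 1.05), with 1 lower and 13 neither of 14 tested. With median-of-ratios scaling their ratio was 0.845 (0.733 to 0.973). Atp8a1 gave 4 of its 6 circRNAs from 1 start site (42079272), and the 2 with most reads there had 33 and 44 and 21 and 17.

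**Figure D5:**
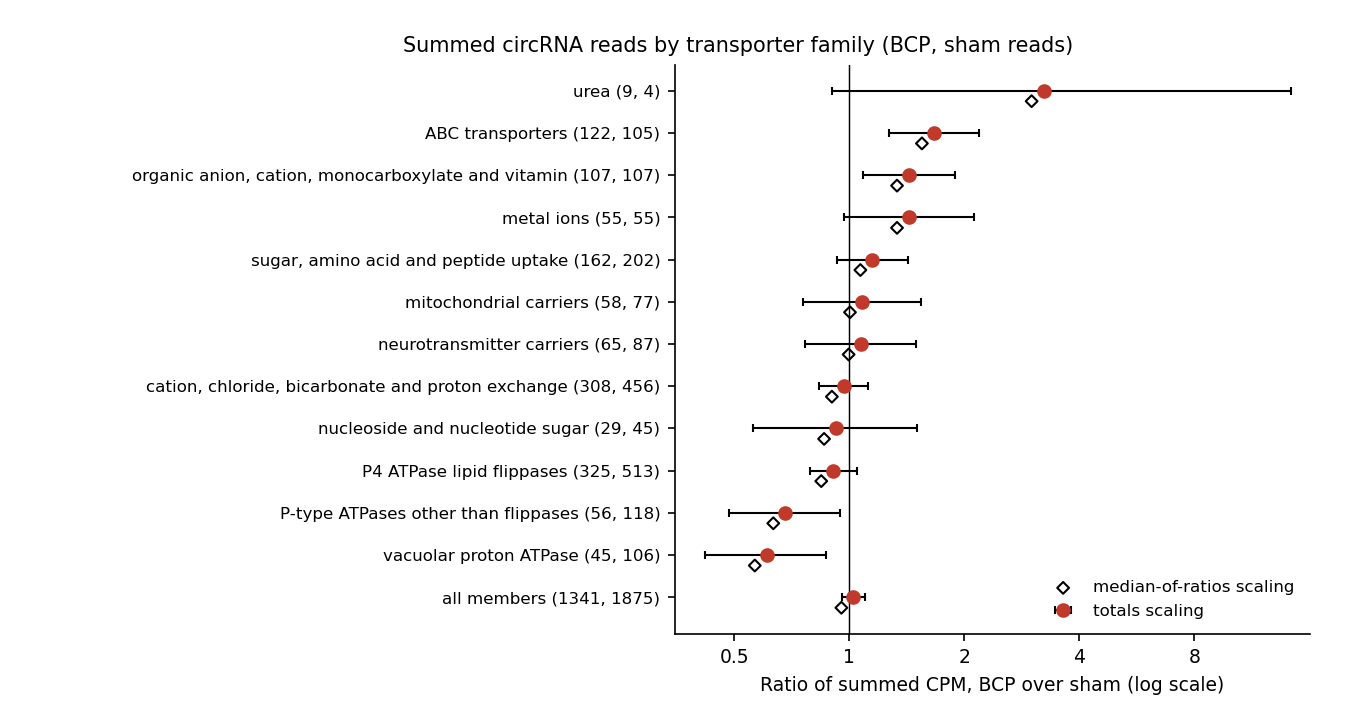
Ratio of summed CPM, BCP over sham (log scale), for each transporter family with exact 95% intervals for counting error (circles) and with median-of-ratios scaling (diamonds); BCP and sham reads stand in brackets. ABC transporters and organic ion carriers lie above 1 and vacuolar and other P-type ATPases below 1, while the set as a whole lies at 1.03.

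Genes that work with transporters were also listed. Of 43 partners and regulators, such as the kinase genes Wnk1 and Stk39 and the ankyrins, 21 hosted 106 circRNAs with 1110 BCP and 1471 sham reads (1.08, 0.9999 to 1.17; 0.998 with TMM scaling). Stk39, whose kinase phosphorylates chloride carriers, gave the most abundant of them (253 and 369 reads, ratio 0.983, 0.834 to 1.16). Of 47 tested, 2 were higher and 2 lower in BCP, against 15.2% of all tested circRNAs, so these 4 are no result about the list. The higher ones were of Oxsr1, a kinase gene related to Stk39 (28 BCP reads, with sham listed at 0), and of Dmxl2, a factor that assembles the proton pump (10 and 4, a call lost with median-of-ratios and TMM scaling). The lower ones were of Wdr7, a partner of Dmxl2 (2 and 17), and of the ubiquitin ligase gene Nedd4 (0 and 11). Each call is of 1 circRNA and not of its gene. The other tested circRNAs of Dmxl2 met neither side, with ratios from 0.430 to 1.31. Those of Wdr7 also met neither side, with ratios from 0.854 to 2.87, as did another of Nedd4 (17 and 16 reads). Transporters whose names fall outside the rule gave 20 circRNAs from 10 of 54 genes, with 125 and 138 reads (1.30, 1.01 to 1.67). Under median-of-ratios scaling the ratio was 1.21 (0.940 to 1.55) and under TMM scaling 1.20 (0.933 to 1.54), with intervals that include 1. Of 8 tested, 1 was higher, of the synaptic vesicle gene Sv2c (21 and 12 reads, 2.51-fold, 1.18 to 5.59), and 0 lower.

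The 154 members under 10 reads were not tested, and 34 of them were listed in both libraries, 47 in BCP alone and 73 in sham alone. They held 265 BCP and 386 sham reads. The span between the joined sites had a median of 9248 bp over all members (quartiles 2404 and 22652), against 9708 bp over all circRNAs. The shortest member, of Slc25a13, spanned 140 bp and the longest, of Slc39a11, 96308 bp, so 0 members reached 100 kb. Members lay on 21 chromosomes, and 18 of the 224 were on chromosome X, against 253 of all 11599 circRNAs. This difference was not tested.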

How the data were processed

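RNA of spinal cord was depleted of ribosomal RNA and treated with RNase R (16 units, 15 min), and strand-marked libraries were made, per the labels' protocols. The authors deposited whole-number counts of back-splice reads and CPM values (headed TPM; all 7375 BCP and 9003 sham values above 0 match reads divided by the library total within 0.001, and 0 is written as 0.001). Per the submitters' processing notes, CASAVA 1.8, BWA and build rn6 were used. No source used here gives the circRNA caller or its read minimum; a minimum drops thin circRNAs to 0, more so in the shallower library. Of each gene field, small RNA names and names covering over 3 Mb were dropped. All 93 host names matched the RefSeq gene table of GRCr8. Exons and circRNA sequences were not used here.

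Counts were scaled to library totals; ratios are BCP over sham with conditional exact binomial (Clopper-Pearson) intervals, and shares have Clopper-Pearson intervals. The log2 ratio adds 0.5 reads. There is 1 library per group, so no p-value was computed. Code ran in Python 3.11.15 with scipy 1.17.1; DESeq2 1.42.0 and edgeR 4.0.16 gave other scalings. The rule for named circRNAs took the 10 most abundant, those past the size rule and the leading one of each family; host genes were those with most circRNAs (10) or past the rule. Others were named after their values were seen, and some results are not reported here. The members and lists were chosen with earlier results of these data known.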

Additional observations from a re-analysis of the deposited data

How the results depend on the processing

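With 1 library per group, depth sets the limits: 154 of 224 transporter circRNAs had too few reads for the size rule, and intervals hold counting error only. Of the comparisons across the set and its families, 136 values under the alternatives stayed within the reported interval or, for counts, within 1.5 times the count, or moved the median by less than the members' spread. Among these, 5 crossed the line of equal level: transmitter carriers (1.07) at 0.996 with median-of-ratios and 0.988 with TMM scaling, mitochondrial carriers (1.08) at 0.996 with TMM scaling, the summed ratio at 0.993 counting only circRNAs with a single gene name, and the median log2 ratio (0.15) at -0.04 with a minimum of 20 reads. The count of circRNAs higher in BCP (3) was 1 with median-of-ratios scaling, 1 with TMM scaling, 10 with a minimum of 5 reads and 1 with a minimum of 20. The count lower (4) was 9 with a minimum of 5 reads and 1 from circRNAs with reads in both libraries. For host genes, the count higher (3) was 1 with a minimum of 20 reads, and the count lower (5) was 3 at 3-fold and 1 from circRNAs with reads in both libraries. The summed ratio (1.03) was 0.954 with median-of-ratios and 0.946 with TMM scaling. From circRNAs with reads in both libraries the P-type ATPases other than flippases reversed, from 0.680 to 1.35. The exchangers of cations, chloride, bicarbonate and protons (0.968) moved to 0.765 counting only circRNAs with a single gene name. They moved to 0.815 without the most abundant member or without the 3 most abundant, alternatives chosen after seeing the data. All of these leave out the leading Slc8a3 circRNA. Counting single gene names also leaves out the Slc26a11 circRNA and another circRNA of Slc8a3. For single circRNAs and host genes, 18 values lost a call of higher or lower and 2 gained one. Another 429 kept such a call or, where none was reported, gained none and stayed inside the reported interval. Some of these 429 fell under the raised minimum of 20 reads and were not tested there. The other 4 gained no call and moved outside the reported interval. Apart from that by construction, the cause of these shifts was not tested. No paired analysis was possible because each group has 1 library.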
